A study of Mus musculus with 4 samples.

Results

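Vmn2r, Speer4 and Defb genes form 3 multi-copy families of the mouse genome that are not expected to be transcribed in osteoblasts. Transcripts were not measured, and RNA polymerase II (Pol II) peaks at them are described here. Members were all protein-coding genes of the RefSeq table for GRCm38 whose symbols start with one of these names, which gave 173 of 21883 genes, namely 124 Vmn2r, 7 Speer4 and 42 Defb genes. A peak was counted for a member when at least 1 bp of it lay inside the gene or within 1000 bp of it. One member, Vmn2r-ps130, carries the symbol of a pseudogene although the table classes it as protein-coding.

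Pol II ChIP-seq, an assay that pulls down Pol II with the DNA bound to it and sequences that DNA, was run on primary osteoblasts from young mice. Adherent cells grown out of bone pieces and passaged as bone marrow mesenchymal stem cells had been kept in osteogenic medium before fixation. The untreated library was titled WT, and the other was titled as treated with OSS_128167, an inhibitor of the chromatin deacylase SIRT6. The labels give no mouse strain, dose or duration, and their treatment field names OSS_128167 for every sample, so the untreated group rests on its title alone. There was 1 library per condition, so no test between conditions was made and each list is read against its own peaks. An input library of each condition was not analysed here as a sample of its own. Among 8 osteoblast markers, OSS_128167 peaks lay at Col1a1, Col1a2, Sp7 and Runx2, and untreated peaks at Col1a2 and Runx2. Alpl, Bglap, Ibsp and Spp1 were without any. At a false discovery rate of at most 0.05, 4 of the 8 markers kept an OSS_128167 peak and 0 an untreated one. Counting every listed peak, OSS_128167 peaks reached 37.8% of all protein-coding genes and untreated peaks 2.30%. At a false discovery rate of at most 0.05 these shares were 11.5% and 0.133%. Whether the marker counts set these cells apart as osteoblasts was not tested.

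Vmn2r genes encode G protein-coupled receptors of basal vomeronasal sensory neurons, which detect peptide and protein pheromones, and each such neuron uses very few of them. Speer4 genes belong to a family of glutamate-rich proteins described from mouse testis. Defb genes encode beta-defensins, small cationic antimicrobial peptides of epithelia, many of which are made in the epididymis. All 3 families grew by tandem duplication, so that neighbouring copies can be close to identical in sequence, and short reads from such copies are hard to place.

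The promoter windows of Speer4 genes, 250 bases before and 50 after each annotated start (RefSeq, GRCm38.p6), are shown because they let the likeness of the copies be read directly. Speer4c lies at chr5:15714222-15714521 on the minus strand, Speer4e at chr5:14938426-14938725 on the minus strand, Speer4d at chr5:15618849-15619148 on the plus strand and Speer4a at chr5:26039456-26039755 on the minus strand. Each is written 5′ to 3′, with capitals at bases that differ from Speer4c or have no partner in it within the shared stretch, and in Speer4c at bases that differ from Speer4e. Ends that reach past the shared stretch are left in lower case.
Speer4c: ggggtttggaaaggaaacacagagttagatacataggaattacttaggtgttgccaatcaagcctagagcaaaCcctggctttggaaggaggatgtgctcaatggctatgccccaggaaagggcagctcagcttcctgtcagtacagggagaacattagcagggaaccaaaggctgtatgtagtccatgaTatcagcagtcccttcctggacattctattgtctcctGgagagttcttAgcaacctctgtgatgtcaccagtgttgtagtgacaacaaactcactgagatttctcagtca
Speer4e: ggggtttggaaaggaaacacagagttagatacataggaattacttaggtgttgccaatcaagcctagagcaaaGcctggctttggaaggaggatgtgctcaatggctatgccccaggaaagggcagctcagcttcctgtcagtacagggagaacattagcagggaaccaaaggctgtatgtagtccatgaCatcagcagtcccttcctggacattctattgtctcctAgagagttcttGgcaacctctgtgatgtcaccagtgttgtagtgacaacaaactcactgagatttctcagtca
Speer4d: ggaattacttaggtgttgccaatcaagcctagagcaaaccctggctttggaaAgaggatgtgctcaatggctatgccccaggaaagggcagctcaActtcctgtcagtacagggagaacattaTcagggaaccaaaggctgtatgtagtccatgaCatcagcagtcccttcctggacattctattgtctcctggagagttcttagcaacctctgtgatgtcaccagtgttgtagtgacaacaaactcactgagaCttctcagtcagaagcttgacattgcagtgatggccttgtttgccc
Speer4a: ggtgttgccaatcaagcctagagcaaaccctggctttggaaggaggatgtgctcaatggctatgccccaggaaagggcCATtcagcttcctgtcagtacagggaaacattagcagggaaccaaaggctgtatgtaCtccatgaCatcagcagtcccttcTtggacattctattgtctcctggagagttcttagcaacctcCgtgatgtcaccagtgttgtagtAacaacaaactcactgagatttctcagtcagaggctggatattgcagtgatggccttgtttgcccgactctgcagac

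Speer4c and Speer4e differed at 4 substitutions over 300 aligned bases (98.7% identity), although they lie apart on chromosome 5. Speer4d differed from Speer4c at 5 substitutions over 265 aligned bases (98.1%), and Speer4a at 8 substitutions and 1 gap base over 254 (96.5%). Speer4b was 98.0% identical to Speer4c over 256 bases. Speer4f1 and Speer4f2 were 97.1% identical to each other, and 88.4% and 87.7% identical to Speer4c.

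Peaks were listed at 7 of the 173 members in the untreated list and at 51 in the OSS_128167 list, and 120 members had none in either. The untreated members amounted to 4.05% (exact Clopper-Pearson 95% interval 1.64 to 8.16), where 2.30% of all protein-coding genes had a peak. The OSS_128167 members amounted to 29.5% (22.8 to 36.9), where 37.8% of all protein-coding genes had one. At a false discovery rate (FDR, the authors' value for each peak within its list) of at most 0.05, 3 members had a peak in the untreated list (1.73%, against 0.133% of all genes) and 12 in the OSS_128167 list (6.94%, against 11.5%). The untreated members at this limit were all Speer4 genes. Intervals cover the counting of genes only, and neighbouring members are not independent.

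**Figure D1:**
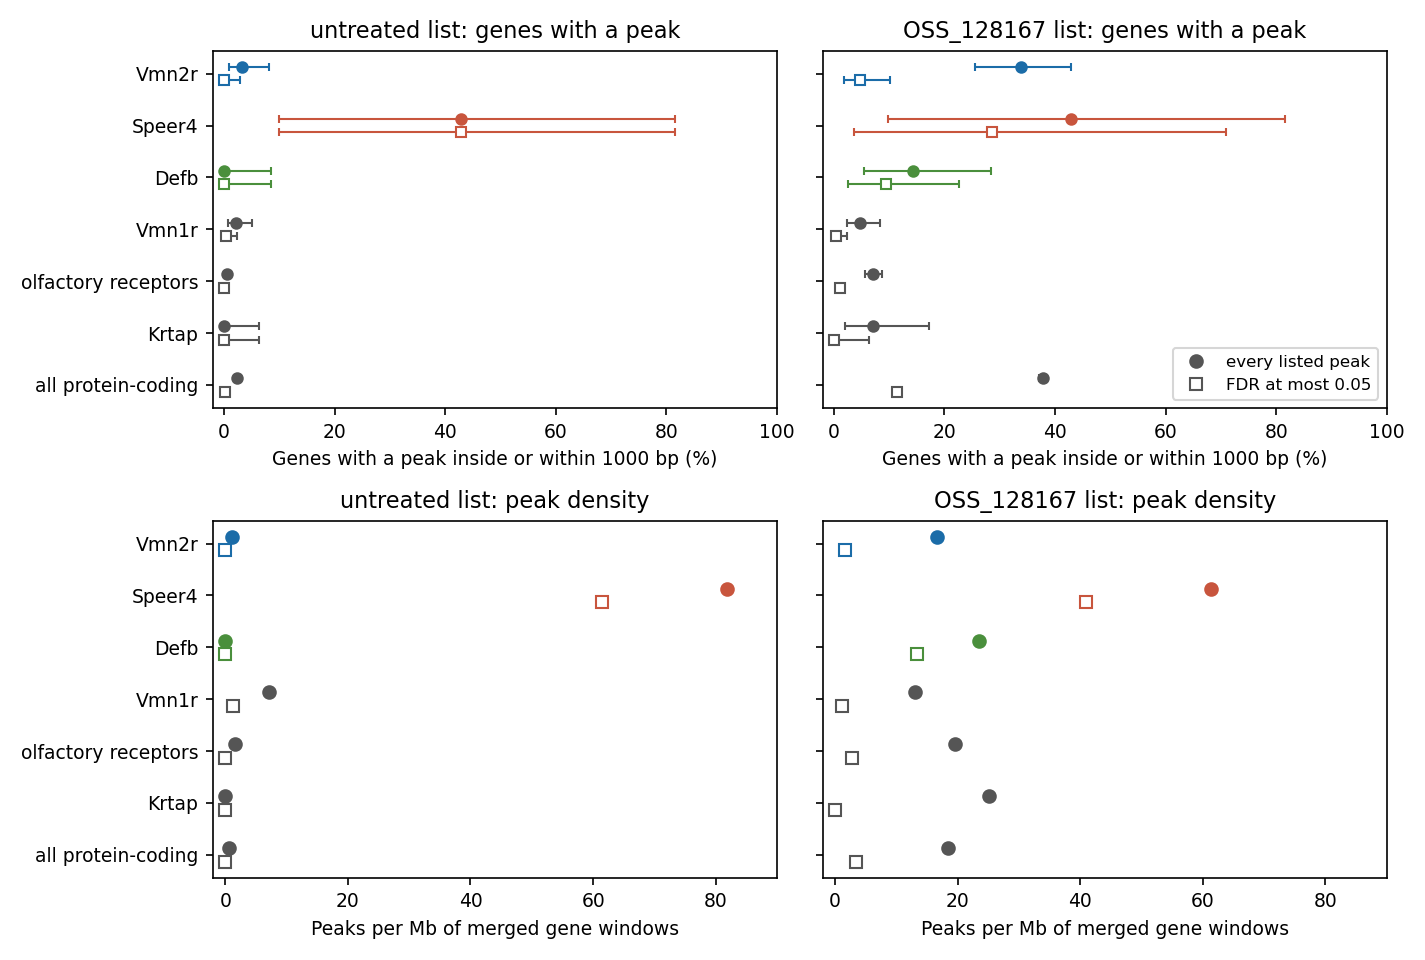
Share of genes with a peak (top, %, with exact 95% intervals) and peaks per Mb of gene windows (bottom) for each family in the untreated (left) and OSS_128167 (right) lists. Filled circles count every listed peak and open squares peaks with an FDR of at most 0.05; the density of Vmn2r genes in the OSS_128167 list, 16.7 per Mb, lies beside 18.5 for all protein-coding genes, while the share of Speer4 genes in that list, 42.9% (9.90 to 81.6), has an interval that spans the 37.8% of all genes.

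Family by family, the density of peaks per Mb of gene windows sets aside the difference in gene length, since the median member measured 24.4 kb in Vmn2r, 4.82 kb in Speer4 and 3.21 kb in Defb, and 17.2 kb in all protein-coding genes. In the OSS_128167 list Vmn2r genes held 58 peaks, or 16.7 per Mb, and Defb genes 7 peaks, or 23.5 per Mb, where all protein-coding genes held 18.5 per Mb. Speer4 genes held 3 peaks within only 0.0488 Mb, or 61.4 per Mb, at 3 of 7 genes (42.9%, 9.90 to 81.6). Peaks with an FDR of at most 0.05 numbered 1.73 per Mb in Vmn2r and 13.4 in Defb, the latter from 4 peaks, beside 3.41 over all protein-coding genes. In the untreated list the densities were 1.15 per Mb for Vmn2r and 81.9 for Speer4, both from 4 peaks, and 0.673 for all protein-coding genes. Untreated density at other genes differed between the chromosomes with Vmn2r peaks. Vmn2r genes held 2.90 per Mb on chromosome 6, from 1 peak, and 2.14 on chromosome 17, from 2 peaks, beside 2.35 and 1.38 at other genes. On chromosome 5 they held 4.38, from 1 peak, beside 0.589. The Speer4 peaks lay at 3 of 7 genes in the untreated list too, beside 2.30% of all genes. Defb genes had 0 peaks among 42 genes, which allows a share of up to 8.41% by the same interval. A peak is counted once it touches a window, which favours families of short genes somewhat in these densities.

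Other multi-copy families were counted beside them. In the OSS_128167 list Vmn1r genes, the other vomeronasal receptor family, had 13.1 peaks per Mb, olfactory receptor genes 19.6 and keratin-associated protein (Krtap) genes 25.1. By gene, 11 of 231 Vmn1r (4.76%), 79 of 1110 olfactory receptor (7.12%) and 4 of 56 Krtap genes (7.14%) had a peak, beside 37.8% of all protein-coding genes. Their median lengths of 0.924, 0.95 and 0.833 kb leave less room for one than Vmn2r genes do. At an FDR of at most 0.05 the densities were 1.19, 2.77 and 0 per Mb, beside 3.41 over all protein-coding genes. In the untreated list 5 Vmn1r genes (2.16%, 7.12 peaks per Mb), 5 olfactory receptor genes (0.45%, 1.62 per Mb) and 0 Krtap genes had a peak, beside 2.30% and 0.673 per Mb of all protein-coding genes.

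Speer4 genes differed from the other members in the height of their peaks. Pileup is the height of the read signal at a peak, deposited as whole numbers for the OSS_128167 library and in steps of 0.543 for the untreated one, so it is compared within a list. In the OSS_128167 list the 3 Speer4 peaks had pileups of 70, 46 and 12, where the 40680 peaks away from members had a median of 8 and a 99th percentile of 20. In the untreated list the 4 Speer4 peaks had pileups of 37.48, 26.08, 19.01 and 18.47, where peaks away from members had a median of 5.98, a 95th percentile of 18.5 and a 99th of 35.4. Speer4c, Speer4d and Speer4e thus gave every Speer4 peak whose pileup was far above the median of its list, and the peak at Speer4a, with a pileup of 12, lay below the 95th percentile of 13.

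Speer4c (chromosome 5, 15709505 to 15714298) had the peak of lowest fold in the whole OSS_128167 list together with one of its highest pileups. That peak, at 15711830 to 15712105 inside the gene, had a fold of 1.34 (rank 40748 of 40748), an FDR of 0.758 and a pileup of 70 (rank 19). The fold is the authors' enrichment over a background that can be worked back as pileup plus 1, divided by fold, less 1. This background was 51.9 at Speer4c, the sixth highest of the list, where its median away from members was 2.17 and its 99th percentile 5.42. The untreated peak at the same place, 15711733 to 15712160, had a fold of 2.96, an FDR of 0.000973, a pileup of 37.48 (rank 13 of 1694) and a background of 12.0. A further untreated peak inside the gene, at 15712923 to 15713131, had a pileup of 18.47 and an FDR of 1. Both lists therefore had tall signal over this gene, beside an implied background that was also high.

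Speer4d (15619099 to 15623864) had peaks beyond its 3′ end in both lists. The untreated one, at 15624429 to 15624736, lay 564 bp outside the gene with a fold of 4.54, an FDR of 0.000459, a pileup of 19.01 and a background of 3.41. The OSS_128167 one, at 15624451 to 15624695, lay 586 bp outside with a fold of 2.31, an FDR of 0.000525, a pileup of 46 (rank 57) and a background of 19.4. The second lay wholly within the first, and both also lay at Gm30417, a long non-coding RNA gene.

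Speer4e (14933631 to 14938475) had a peak in the untreated list alone, and Speer4a (26034270 to 26039505) in the OSS_128167 list alone. The Speer4e peak, at 14934466 to 14934752, had a fold of 6.35, the eighth highest of that list, with an FDR of 3.11e-09 and a pileup of 26.08. The nearest OSS_128167 peak was 13982 bp away. At Speer4a the peak lay at 26039103 to 26039328, 177 bp past the annotated start, with a fold of 3.39, an FDR of 0.0285 and a background of 2.84. It was the one Speer4 peak within 1000 bp of an annotated start. Speer4b, Speer4f1 and Speer4f2 had no peak in either list.

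**Figure D2:**
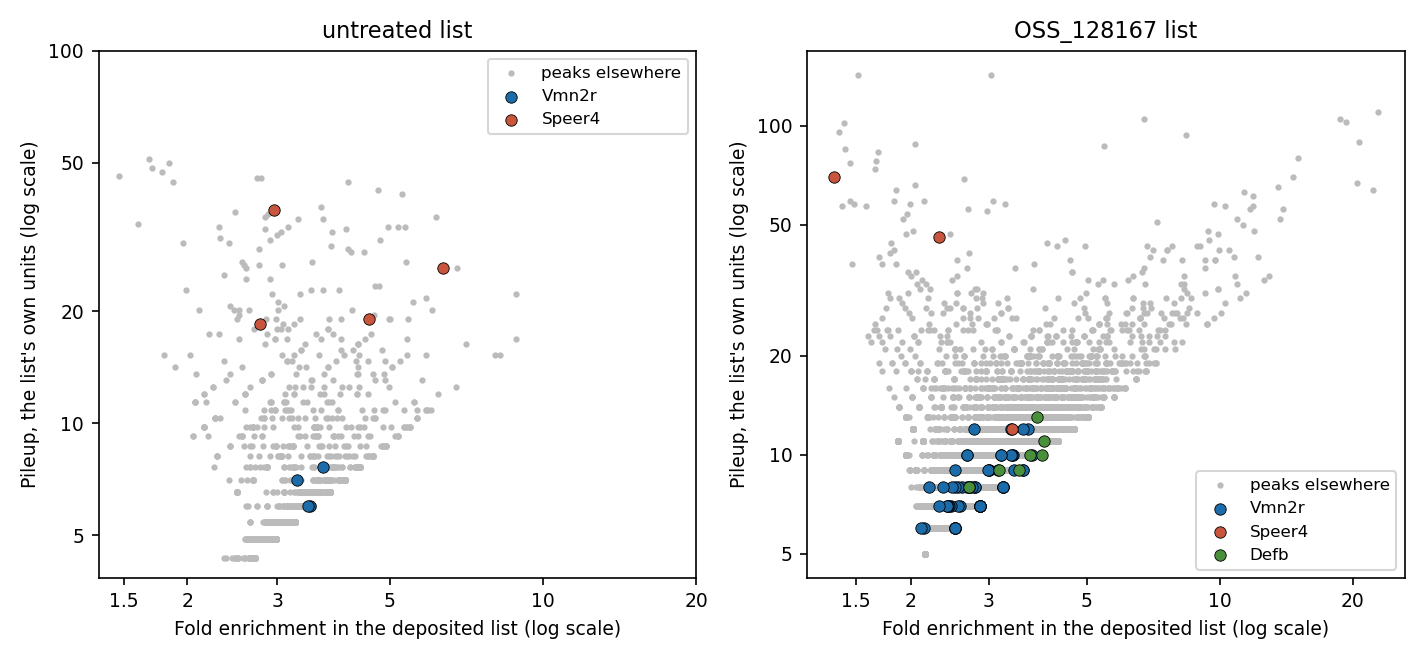
Pileup (list units, log scale) against fold enrichment (log scale) for every peak of the untreated (left) and OSS_128167 (right) lists, with peaks at Vmn2r, Speer4 and Defb genes in colour and all other peaks in grey. Speer4c sits at the far left and near the top of the OSS_128167 panel (fold 1.34, pileup 70), while Vmn2r peaks in both panels and Defb peaks in the OSS_128167 panel, with pileups of at most 13, lie in the low, dense part of the cloud.

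The stretch around Speer4d and Speer4c was dense in peaks beyond the members themselves. Over 0.0972 Mb from 15618099 to 15715298 the untreated list had 19 peaks, 10 of them with an FDR of at most 0.05, and 3 of the 19 were at the 2 members. The OSS_128167 list had 7 peaks there, 4 of them at that limit, and 2 of the 7 were at members. Their median pileups were 26.6 and 52.0, and their median backgrounds 7.06 and 26.6. The transcribed pseudogene Speer4cos, which overlaps Speer4c, took 8 untreated peaks and 2 OSS_128167 peaks. Without strand, signal from these overlapping genes cannot be told apart.

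**Figure D3:**
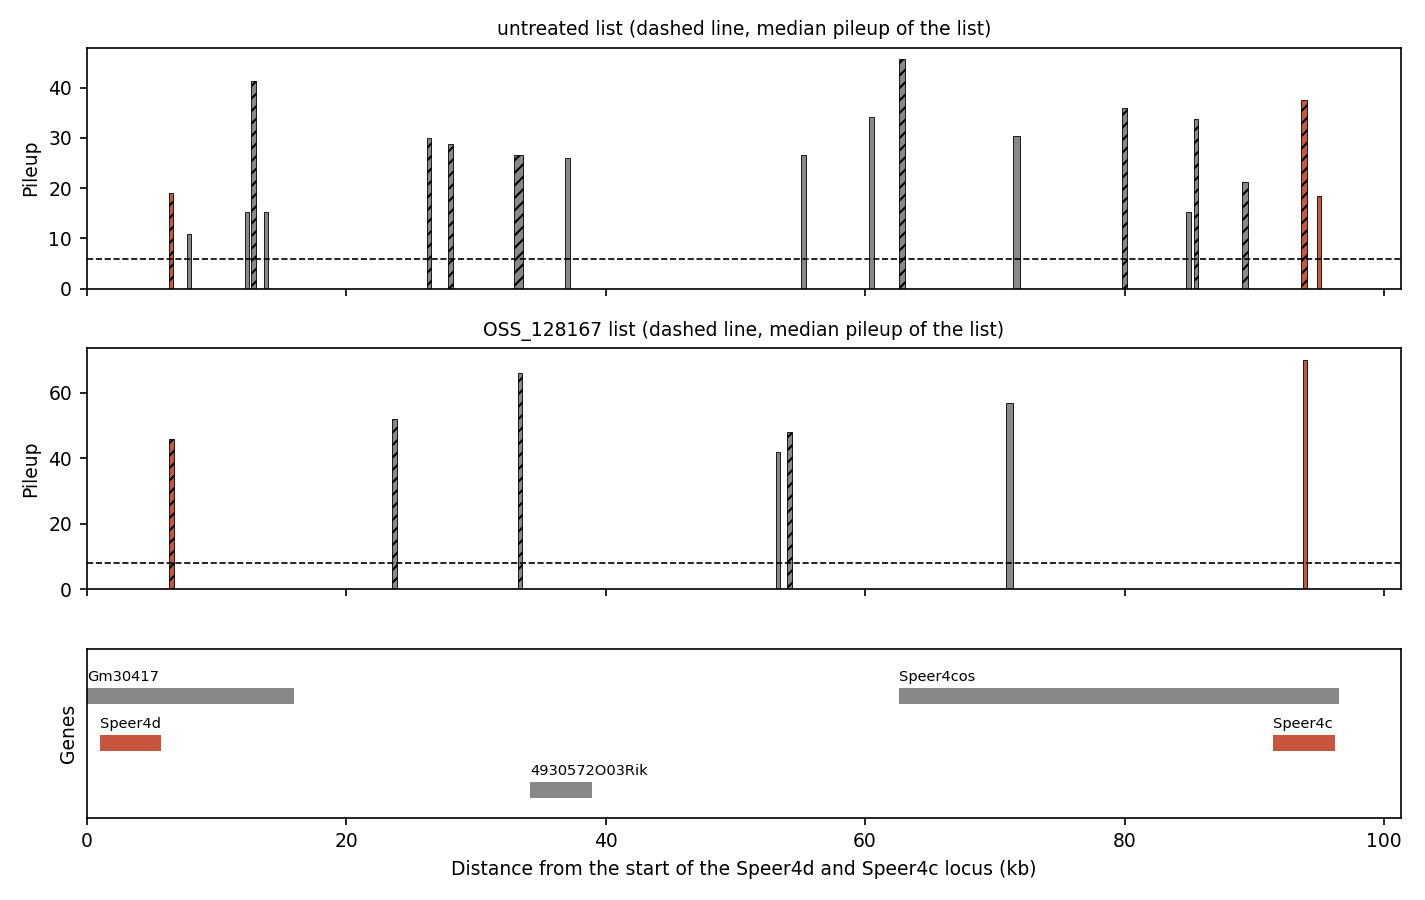
Pileup of each peak (bars, at peak width) along the Speer4d and Speer4c locus in the untreated (top) and OSS_128167 (middle) lists, and annotated genes (bottom), against distance from the start of the locus in kb. Red marks peaks at the members and the members themselves, hatching an FDR of at most 0.05, and the dashed line the median pileup of the list (5.98 and 8); all bars stand above that line.

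Vmn2r genes had peaks of ordinary height. The 58 OSS_128167 peaks had pileups of 6 to 12 with a median of 8, the same median as peaks elsewhere, and folds of 2.11 to 3.76 with a median of 2.79, beside 2.87 elsewhere. In the untreated list the 4 peaks had pileups of 5.98, 5.98, 7.06 and 7.61 and an FDR of 1. Few untreated peaks away from members passed the limit either, since 6.29% had an FDR of at most 0.05. An OSS_128167 peak lay at 42 of 124 Vmn2r genes (33.9%), beside 37.8% of all protein-coding genes. At an FDR of at most 0.05 these shares were 4.84% and 11.5%. Of the 42 genes, 31 had a single peak. Of the 58 peaks, 55 lay inside the gene, 16 had the shortest length in the list (226 bp), and 6 had an FDR of at most 0.05 (16.1% of peaks away from members did).

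These 6 peaks lay at Vmn2r72, Vmn2r91, Vmn2r25, Vmn2r31, Vmn2r52 and Vmn2r107, on chromosomes 6, 7 and 17. Vmn2r72 had the highest fold of the family, 3.76 (FDR 0.0205, pileup 10), in a peak on chromosome 7 from 85755322 to 85755619 that lay 340 bp outside the gene before its start. Vmn2r91 had a fold of 3.69 (FDR 0.011, pileup 12), 19153 bp past its start. Vmn2r25, with 3.59 (FDR 0.0153), and Vmn2r107, with 3.37 (FDR 0.0302), also had pileups of 12. Vmn2r31 and Vmn2r52 both had a fold of 3.59 and a pileup of 9, just inside the limit (FDR 0.05). Vmn2r4 (3.41, FDR 0.0531), Vmn2r95 (3.38, FDR 0.0586), Vmn2r19 (3.36, FDR 0.0619) and Vmn2r59 (3.42, FDR 0.0714) fell just outside it. None of these genes had an untreated peak.

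Among the 153 members with a promoter window, Vmn2r19 alone had a peak reaching into it. Its window is printed for that reason (chr6:123308083-123308382, plus strand, RefSeq GRCm38.p6), with the 32 bases under the peak in capitals.
Vmn2r19: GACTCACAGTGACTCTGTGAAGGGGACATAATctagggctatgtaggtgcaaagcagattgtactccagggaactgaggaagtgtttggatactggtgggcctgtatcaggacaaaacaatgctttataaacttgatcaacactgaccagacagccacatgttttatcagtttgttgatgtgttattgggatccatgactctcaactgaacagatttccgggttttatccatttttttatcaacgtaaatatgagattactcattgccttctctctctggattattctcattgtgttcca

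That peak, on chromosome 6 from 123307873 to 123308114, ended 218 bp before the gene, so it lay mostly upstream of the window. Among peaks at members with an annotated start, 6 of 56 Vmn2r peaks in the OSS_128167 list (10.7%, 4.03 to 21.9) lay within 1000 bp of that start, beside 6.89% (6.50 to 7.30) of peaks at other protein-coding genes. In the untreated list 0 of 4 Vmn2r and 0 of 4 Speer4 peaks did, beside 6.60% of peaks at other protein-coding genes. The intervals of Vmn2r and of the other genes overlap.

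Among Vmn2r clusters of at least 4 members, the one on chromosome 3 had the most OSS_128167 peaks per Mb of its span (31.1). It holds Vmn2r1 to Vmn2r7, the receptors that basal vomeronasal neurons express broadly beside the more selective family members. Here 6 of 7 genes had a peak (85.7%), 11 peaks in all or 38.5 per Mb of gene windows, beside 44.2% and 20 per Mb at other protein-coding genes of that chromosome. None of these peaks had an FDR of at most 0.05, and the lowest was 0.0531, at Vmn2r4. Vmn2r1 accounted for 5 of them over its 142676 bp, with pileups of 8 to 10, and 1 of the 5 was shared with Vmn2r2, which lies within its boundaries. On chromosome 7, with 52 members, 18 had a peak (34.6%, 18.0 per Mb, beside 32.2% and 21.8 per Mb at other genes). On chromosome 17 8 of 32 did (25%, 12.8 per Mb, beside 38.8% and 23.2), and on chromosome 6 5 of 9 (55.6%, 14.5 per Mb, beside 38.3% and 20.1). The clusters of 4 or more members thus ran from none to 6 of 7 members with a peak.

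**Figure D4:**
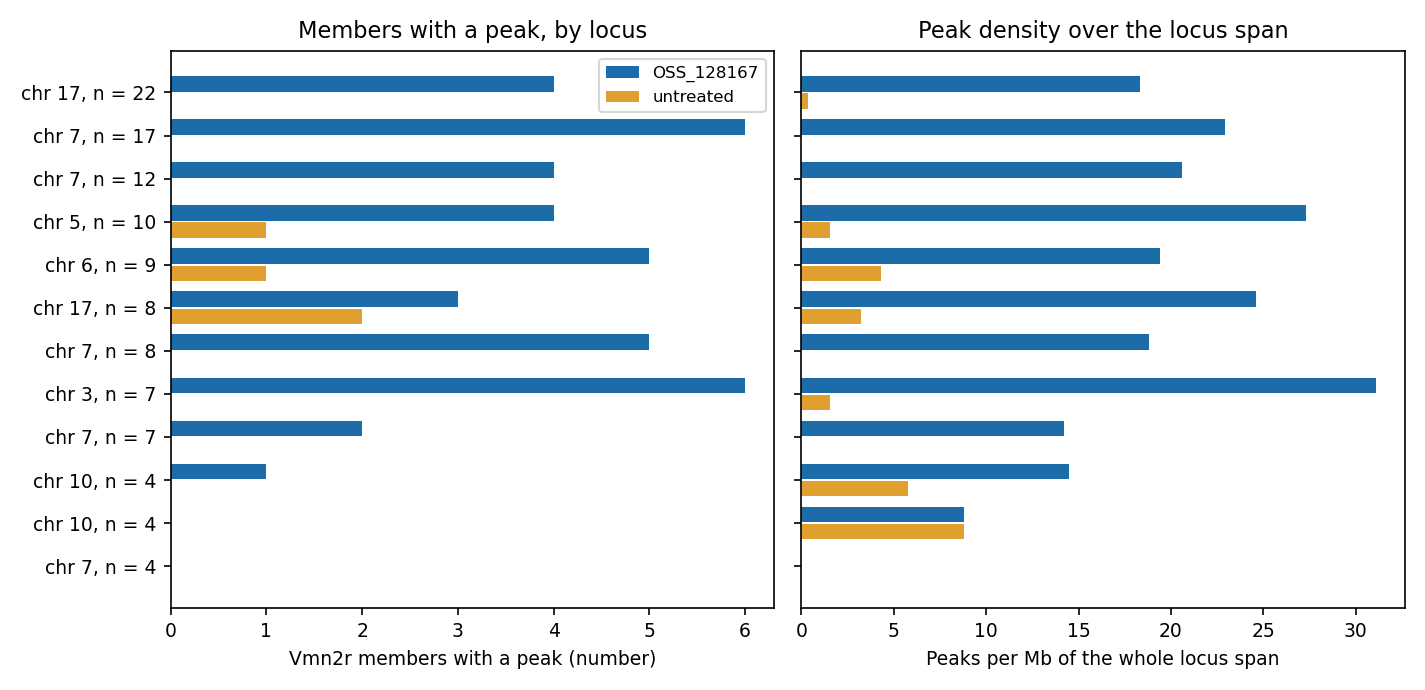
Number of Vmn2r members with a peak (left) and peaks per Mb of the whole locus span (right) for each locus of at least 4 members, with the chromosome and number of members at the left, for the OSS_128167 (blue) and untreated (yellow) lists. The locus of 7 members on chromosome 3 has 6 with a peak and 31.1 peaks per Mb in the OSS_128167 list, and untreated peaks at members occur on chromosomes 5, 6 and 17.

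At 3 Vmn2r genes there were peaks in both lists, and in none of them did the peaks overlap, as in 316 of 356 other protein-coding genes with peaks in both lists (88.8%). At Vmn2r-ps130, on chromosome 17, the untreated peak (fold 3.45, pileup 5.98) and the OSS_128167 peak (fold 2.52, pileup 9) lay 2228 bp apart. At Vmn2r9 the peaks (3.49 and 2.20) were 4665 bp apart, and at Vmn2r20 (3.70 and 3.19) 11622 bp. Vmn2r115 had an untreated peak alone, with a fold of 3.29. Over all members 2 of 8 untreated peaks (25%) overlapped 2 of 68 OSS_128167 peaks (2.94%), and both pairs were at Speer4 genes. At other protein-coding genes 45 of 710 untreated peaks (6.34%) overlapped 43 of 19721 OSS_128167 peaks (0.218%).

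Defb genes had peaks in the OSS_128167 list at 6 of 42 members (14.3%, 5.43 to 28.5), beside 37.8% of all protein-coding genes. They had none in the untreated list, where 2.30% of all protein-coding genes had one. Defb50 had the highest fold, 4.01 (FDR 0.00612, pileup 11), at 21828170 to 21828504 on chromosome 8. Defb1, which encodes a beta-defensin of kidney and other epithelia, had peaks with folds of 3.95 (FDR 0.012, pileup 10) and 2.71 (FDR 0.377, pileup 8) inside the gene. Defb40 had 3.86 (FDR 0.00379, pileup 13), and Defb12 3.72 (FDR 0.0229, pileup 10) in a peak 652 bp outside the gene. At Defb39 the fold was 3.52 (FDR 0.0548) and at Defb41, on chromosome 1, 3.17 (FDR 0.141), both with a pileup of 9. All 7 peaks had pileups between 8 and 13 and backgrounds near the median of the list (family median 2).

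Most of these genes lie on chromosome 8, where 5 of 24 Defb genes had a peak (20.8%, 33.4 per Mb, beside 42.7% and 23.7 per Mb at other genes of that chromosome). The 11 Defb genes of chromosome 2 and the 5 of chromosome 14 had none. The untreated list had 0 peaks over the whole span of each of the 6 Defb loci, and the untreated peak nearest to a Defb peak of the OSS_128167 list on chromosome 8 was 272694 bp away. The untreated peaks of chromosome 8 thus all lay outside the Defb loci. Untreated density at other protein-coding genes was 1.15 per Mb on chromosome 8, where the longest Defb locus spans 0.525 Mb. It was 0.413, 0.285 and 0.206 per Mb on chromosomes 1, 2 and 14. At such densities, 0 peaks over spans this short do not set the Defb loci apart.

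Promoter windows of all 3 families were poor in CG dinucleotides. Sequences were found for 117 Vmn2r, 7 Speer4 and 29 Defb genes. The median number of CG dinucleotides per 300-base window was 1 in each family, beside 13 in 17338 other protein-coding genes, and the observed-to-expected ratio was 0.0957, 0.0566 and 0.0855 beside 0.583. The 206 Vmn1r windows had a median of 1 and a ratio of 0.145. The letters TATAAA, searched on both strands, were in 23.1% of Vmn2r, 0 of 7 Speer4 and 17.2% of Defb windows, in 42.2% of Vmn1r windows and in 13.3% of all windows outside the 3 families.

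To see how close the copies are, the promoter window of each member was aligned to its nearest relative in the family. The median identity was 93.8% for Vmn2r genes with an OSS_128167 peak (n = 40) and 92.3% for those without (n = 77). The 4 Vmn2r genes with an untreated peak had a median of 96.5%, with 94.7% at Vmn2r9, 96.0% at Vmn2r20, 97.0% at Vmn2r-ps130 and 99.3% at Vmn2r115, beside 93.3% for the other 113. Each of the 7 Speer4 windows had a relative at 95% or more, with medians of 98.1% for the 3 with an OSS_128167 peak and 97.5% for the other 4. In Defb the median was 64.5% for the 2 genes with an OSS_128167 peak that have a window and 57.9% for the other 27, and the highest identity was 88.8%. Some Vmn2r windows had an identical relative over the aligned bases, among them 4 genes chosen after their values were seen, whose OSS_128167 peaks had pileups of 9 at Vmn2r31, 8 at Vmn2r49, 8 at Vmn2r126 and 7 at Vmn2r43. The part of such identity in the heights of peaks was not tested.

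Genes related to these families, by signalling, likeness or position, were counted in the same way. They are read beside the 37.8% (OSS_128167) and 2.30% (untreated) of all protein-coding genes with a peak. At an FDR of at most 0.05 these shares were 11.5% and 0.133%. Of 16 genes of vomeronasal signalling, 3 had a peak after OSS_128167 and 0 in the untreated list. They were Gnao1, H2-M10.3 and H2-M10.2. Gnao1, the G protein subunit of basal vomeronasal neurons that other cells also express, had 11 peaks (highest fold 4.98, lowest FDR 3.95e-05). H2-M10.3 (highest fold 4.48, lowest FDR 0.000236) and H2-M10.2 (3.34, FDR 0.0649) encode MHC class I-like molecules found with Vmn2r receptors. Trpc2, the transduction channel of these neurons, and Omp had none. Of 29 alpha-defensin (Defa) genes, 6 had an OSS_128167 peak, 2 of them at an FDR of at most 0.05 (Defa2, 3.77, and Defa42, 3.59), and 0 an untreated peak. Ccr6, a receptor for some beta-defensins, had 1 peak (2.61, FDR 0.404), and Mc1r, Tlr4, Spag11a and Spag11b none. The 3 other Speer genes and Dlg5 had none in either list.

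Markers of the cell types in which the families are known are read against the same shares of all genes, and the lists are short. Gnao1 was the only one of 4 vomeronasal neuron markers with a peak, and 0 of 6 male germ cell markers and 0 of 6 epithelial markers had one in either list.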

How the data were processed

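Peak lists of 2 Pol II ChIP-seq libraries, 1 per condition, were read as deposited. Per the submitters' processing notes, fastp and BWA were used with the build mm10, and neither the peak caller, its thresholds nor its use of the inputs is given in the sources used here. Per the file headers, each row holds the peak's interval, its fold enrichment as a ratio, its p-value with an FDR, and its pileup, which is a signal height made by the authors. Each list came from a single library. The largest deposited p-value was 0.00956 in the untreated and 0.00999 in the OSS_128167 list. Read totals are not in the lists, so depth is unknown.

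Genes and promoter windows came from RefSeq GRCm38.p6, the assembly behind mm10. The gene table has no exons, so exonic and intronic peaks were not separated. A peak counted for every gene it reached within 1000 bp. Members of a family with gaps of at most 500 kb formed a locus. The background was worked back from fold and pileup, and a Poisson p-value from it lay within 0.00546 log10 units of the deposited p-value for every peak. Promoter windows were aligned with free ends, and identity was counted over shared stretches of at least 200 bases. Identity between whole proteins, planned in place of promoters, was not computed because no protein sequences were used here. Interval counts were tested on simulated data. Members, gene lists and alternatives were chosen with earlier results of these data known.

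Named genes were all Speer4 and Defb members with a peak, and Vmn2r members with an FDR of at most 0.05, with peaks in both lists, or among the 10 of highest fold in a list. Software was biopython 1.88, pandas 2.3.3, numpy 2.4.6, scipy 1.17.1 and matplotlib 3.10.9 under Python 3.11.15.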

Additional observations from a re-analysis of the deposited data

How the results depend on the processing

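No paired analysis was possible because each condition had 1 library. Of 185 values recomputed under the alternatives, 161 stayed within 1.5 times (counts) or within the interval of the median (pileup). Counts of 0 that stayed 0 are among these. For sets of at most 8 peaks that interval was their full range, which the median of a subset cannot leave. These sets were Speer4, Defb and, in the untreated list, Vmn2r and all families. Without the locus with the most peaks, median pileup at Speer4 genes went from 46 to 12 (OSS_128167) and from 22.5 to 26.1 (untreated). Over all families in the untreated list it went from 13 to 7.06. At an FDR of at most 0.05, Vmn2r kept 0 genes and 0 peaks in the untreated list and 6 and 6 in the OSS_128167 list (median pileup 11), Defb 4 peaks, and all families together 3 genes and 3 peaks in the untreated list and 12 and 12 in the OSS_128167 list (median pileup 11.5). With 5000 bp around each gene, untreated peaks numbered 9 at Speer4 genes and 14 over all families, and Defb genes with an OSS_128167 peak numbered 10, with 14 peaks. Leaving out the locus with the most peaks left 2 Vmn2r genes and 2 peaks, 1 Speer4 gene and 1 peak, and 5 peaks over all families in the untreated list, and 1 Speer4 gene and 1 peak and 3 Defb genes and 4 peaks in the OSS_128167 list; here fewer genes are counted. For Speer4 this fall was fixed in advance, since the Speer4d and Speer4c locus held 2 of the 3 genes with a peak in each list. The gene left was Speer4e in the untreated list (FDR 3.11e-09) and Speer4a in the OSS_128167 list (FDR 0.0285). Other alternatives moved no value beyond these bounds, including leaving out Vmn2r-ps130, which was chosen after the data were seen. With 1 library per condition and unknown depth, neither the spread between cultures nor the effect of OSS_128167 can be estimated, and permissive peak thresholds mean that a listed peak need not pass correction.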

Other observations

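Pseudogenes of the Vmn2r family, which were not members, had peaks at 30 of 148 genes (20.3%) in the OSS_128167 list and at 5 (3.38%) in the untreated list. Of all protein-coding genes, 37.8% and 2.30% had a peak in these lists. No density per Mb is given for the pseudogenes, so their counts are not set against gene length. The untreated peaks at these 5 pseudogenes numbered 27, of which 2 had an FDR of at most 0.05, with a highest fold of 8.83 and pileups of up to 16.84, beside a highest pileup of 7.61 at Vmn2r genes themselves. In the OSS_128167 list 51 peaks lay at Vmn2r pseudogenes, 5 of them at that limit, with a median pileup of 9. The stretch around Speer4f1 and Speer4f2, genes without a peak of their own, had 1 untreated peak between them, with a pileup of 14.67 and an FDR of at most 0.05, and 2 OSS_128167 peaks with a median pileup of 8.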
